A study of Rattus norvegicus with 5 samples.

Results

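The signals of 8 genes linked to the cellular response to low oxygen were described in the rat insulinoma line INS-1 and in 4 clones derived from it. The genes were Hif1a, Stc1, Vegfa, Ankrd37, Mxi1, Bhlhe40, Bnip3 and P4ha2, and they were chosen by name after their signals on these arrays were known, because Stc1 was brighter in every clone than in the parental line while Ankrd37 and Mxi1 were dimmer. Every probe set (a group of short probes that together read 1 transcript) assigned to 1 of these symbols alone was used. There were 13 such probe sets, for 8 of the 10411 genes on the array, among 15866 probe sets in all. Of the 13, 11 passed the brightness limit for testing, a mean log2 level over the 5 arrays that corresponds to a signal of about 194, as did 9520 of the 15866. Because the difference between the clones and the parental line chose the genes, it is given for them as a description, with no test. The difference between the 2 sets of clones was not itself a ground for that choice and was tested. The same 4 clone arrays enter both, so the test is not fully separate from the choice.

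INS-1 cells are insulin-secreting cells grown from a rat beta cell tumour. The parental line carried no inserted construct that the labels name. The 4 clones, all labelled INS-1 Flp-In T-REx, carry an FRT site, a short landing sequence at which the FLP recombinase can insert a chosen gene, together with the tetracycline repressor, which holds such a gene silent until tetracycline is added. No introduced gene, no tetracycline treatment and no exposure to low oxygen is named for any of the 5 samples, so the arrays compare cell lines and not oxygen levels. Clones 1-1.2 and 1-1.16 are called set 1-1 here, and clones 5-3.14 and 5-3.19 set 5-3, after the shared first part of their names. What that first part stands for is not given, each line is 1 clone, and each was measured on 1 array. The spread between clones therefore holds both the differences among clones and the error of single arrays, and nothing measures the spread of the parental line. In bulk RNA, fewer cells that express a gene and less of its RNA per cell cannot be told apart.

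In oxygenated cells, hydroxylases of the EGLN family mark the alpha subunits of hypoxia-inducible factor (HIF), such as Hif1a, for capture by Vhl and destruction. When oxygen falls the alpha subunit persists, pairs with an Arnt subunit and binds a short core sequence, ACGTG or GCGTG, near its target genes. Because this control acts on the protein, the messenger RNA of Hif1a is no direct readout of HIF activity, and target genes are usually read instead. Targets include the secreted hormone stanniocalcin 1 (Stc1), the vascular growth factor Vegfa, transcriptional regulators such as Mxi1 and Bhlhe40, the mitophagy protein Bnip3 and the collagen-modifying enzyme P4ha2. Most of them also answer to other signals, such as growth factors, nutrients and calcium.

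The 250 bases before the annotated start of each gene were taken from RefSeq promoters of assembly GRCr8 to show where that core occurs. Of the 8 genes, 7 matched, with 8 windows because Vegfa has 2, and Stc1 was not matched. The motifs searched were ACGTG and GCGTG on both strands; a match is a description of letters and not a bound site. The palindrome CACGTG, an E-box that proteins such as Bhlhe40 and the Mxi1 partner Max can bind, holds ACGTG on both strands and counts as 2 matches. The core was found in 6 of the 8 windows, against 36.7% of 33469 RefSeq windows of the same length, and 5 of the 8 held at least 2 matches, against 16% of all. The share of G and C was 64.4% to 74.8% in the windows with the core, and 60.4% and 56.0% in those of Vegfa. All RefSeq windows were not matched for this share, and the genes were chosen as hypoxia genes, so no enrichment is read from these counts. Neither Vegfa window held the core, and sequence outside the windows was not searched for any gene. The 4 windows with the largest numbers of matches are shown, written 5′ to 3′ along the gene, with each core or E-box in capitals. They belong to 3 genes that were lower in all clones and to P4ha2.
Ankrd37, chr16:53001257-53001506, plus strand: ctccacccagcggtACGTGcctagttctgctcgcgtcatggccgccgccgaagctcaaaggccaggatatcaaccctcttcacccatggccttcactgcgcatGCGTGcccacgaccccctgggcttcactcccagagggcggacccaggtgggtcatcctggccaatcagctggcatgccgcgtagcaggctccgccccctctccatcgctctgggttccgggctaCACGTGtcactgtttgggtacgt
Bhlhe40, chr4:143174200-143174449, plus strand: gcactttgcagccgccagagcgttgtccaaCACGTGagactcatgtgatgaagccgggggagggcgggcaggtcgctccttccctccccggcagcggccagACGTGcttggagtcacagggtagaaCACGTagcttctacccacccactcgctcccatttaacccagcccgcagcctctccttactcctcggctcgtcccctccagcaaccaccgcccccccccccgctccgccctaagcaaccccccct
Bnip3, chr1:203154963-203155212, minus strand: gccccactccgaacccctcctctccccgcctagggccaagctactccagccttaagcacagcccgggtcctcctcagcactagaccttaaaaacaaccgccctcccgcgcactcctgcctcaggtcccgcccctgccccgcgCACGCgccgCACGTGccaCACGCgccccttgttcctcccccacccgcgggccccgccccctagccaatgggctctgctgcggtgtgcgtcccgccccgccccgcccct
P4ha2, chr10:38743644-38743893, plus strand: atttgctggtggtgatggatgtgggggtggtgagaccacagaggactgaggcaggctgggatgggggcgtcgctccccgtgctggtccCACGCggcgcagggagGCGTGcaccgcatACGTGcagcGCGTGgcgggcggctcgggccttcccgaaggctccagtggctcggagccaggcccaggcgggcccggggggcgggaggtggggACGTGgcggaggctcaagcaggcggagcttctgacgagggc

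The Ankrd37 window holds 4 matches, 2 of them in an E-box that begins 23 bases before the start. The Bhlhe40 window also holds 4, again with 1 E-box. The Bnip3 window holds 4 matches that begin 108 to 90 bases before the start, with 1 E-box among them. The P4ha2 window holds 5 with no E-box. Hif1a had 3 matches with 1 E-box, and Mxi1 had 1 match with no E-box. An E-box occurred in 5.59% of all windows, and no enrichment is read from this either.

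**Figure D1:**
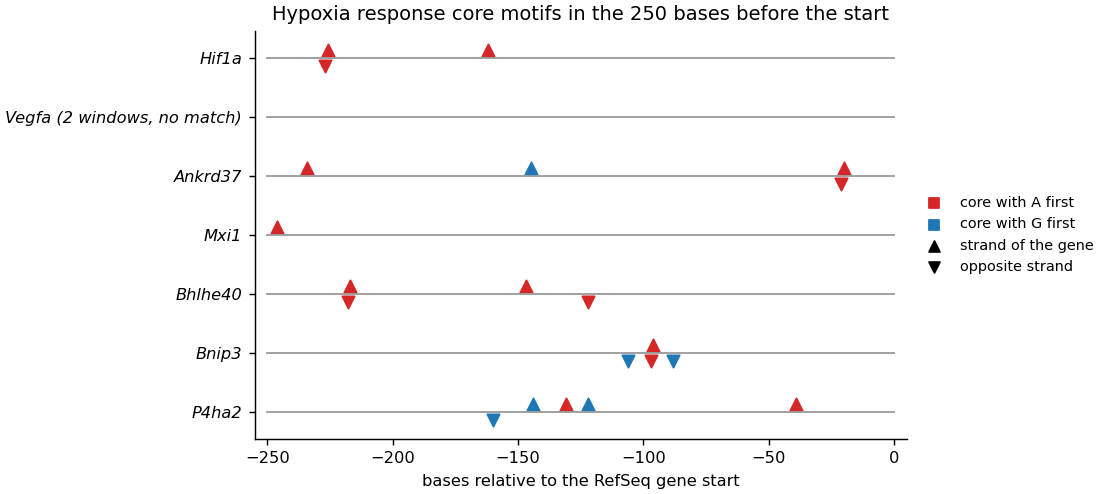
Position of each ACGTG or GCGTG match in bases before the annotated start, for the promoter windows of 7 of the 8 genes; marks above and below each line are matches on the gene's own strand and on the opposite strand. P4ha2 has 5 matches and Ankrd37, Bhlhe40 and Bnip3 have 4 each, while neither Vegfa window has any.

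The deposited signals had already been brought to a common level: the trimmed mean, without the lowest and highest 2% of probe sets, lay at 1000.24 to 1000.28 on all 5 arrays. All 11 beta cell markers with a probe set were above the brightness limit on the mean, with signals of 1030.6 to 42217 and sums of 124793.5 to 181054, the highest on the parental array. None of the 5 fibroblast, 3 endothelial, 4 leukocyte or 4 acinar and ductal markers reached the limit; none was at 0, and the brightest single value was 253.2. Of 3 other islet hormones only glucagon (Gcg) was above the limit, at 6874.5 in parental cells and 2063.6, 17772.1, 20549.5 and 24433.9 in the clones. Within the beta cell list, insulin 2 (Ins2) read 28816.1 in parental cells and 30224 in clone 1-1.2 but 3952.8 to 5380.8 in the other clones. The 27 probe sets for bacterial transcripts with a poly(A) tail averaged 1.73 times as bright on the parental array as on the clones, and 24 of them were brightest there. The lys control differed most, 3.57-fold. The 18 probe sets of hybridisation controls went the other way, at 0.797 times the clones, with 15 lowest on the parental array. Whether either control moved the signals of the genes described was not tested.

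Between clones and parental line, limma (a linear model with a variance estimate shared over probe sets) called 0 of 9520 probe sets at a Benjamini-Hochberg adjusted p of 0.05, which is 0% (lowest adjusted p 0.887); 349 had an unadjusted p under 0.05. The background against which the genes stand is therefore a count of directions. Of all tested probe sets, 19.7% were lower than the parental array in all 4 clones and 18.4% were higher in all 4. A difference of at least 2-fold in every clone was seen for 0.452% downward and 0.263% upward. Taking the brightest probe set of each gene, 5 of the 8 genes were lower in all 4 clones and 1 was higher, and 1 gene in each direction passed 2-fold in every clone. These counts follow from how the genes were chosen, and nothing is read from them.

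Hif1a encodes the oxygen-regulated HIF subunit itself. Its brighter probe set (1387076_at) read 2694.4 in parental cells, 2234.6 in clone 1-1.2, 2317.2 in 1-1.16, 2010.6 in 5-3.14 and 2212.9 in 5-3.19. The parental array was the brightest, and the 4 clones lay close together at 2194 ± 130 (SD, n = 4). The parental signal was 1.16 to 1.34 times that of the clones, a mean log2 difference of −0.30. Of the 8 genes it had the smallest spread among clones, an SD of 0.09 on the log2 scale. A second probe set (1368149_at) was below the brightness limit, at 75.3 in parental cells and 18.3 to 24.9 in the clones, and was not tested.

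Stc1 encodes a secreted glycoprotein hormone first known from calcium control in fish, and it is induced by low oxygen in several cell types. Its brighter probe set (1377404_at) read 1880.3 in parental cells, 6097.1 in clone 1-1.2, 8551.2 in 1-1.16, 9879.3 in 5-3.14 and 5536.5 in 5-3.19. All 4 clones were above the parental array, by 3.24-fold, 4.55-fold, 5.25-fold and 2.94-fold in the same order, and the clones averaged 7516 ± 2048 (SD, n = 4). The mean log2 difference was 1.95, the tenth largest rise of 9520 probe sets. A second probe set (1387623_at) was dimmer and moved further: it read 492 in parental cells, then 2247.9, 3331.4, 4547.6 and 2009.7 in the clones in the same order. Its folds were 4.57, 6.77, 9.24 and 4.08, its mean log2 difference 2.50, and its rank among rises 2. Stc1 was chosen for this rise, so nothing is read from either rank.

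Both Stc1 probe sets placed the lines in one order, with 5-3.14 highest, then 1-1.16, 1-1.2, 5-3.19 and the parental line. On the brighter probe set the steps between neighbouring clones, from the highest down, were 0.21, 0.49 and 0.14 on the log2 scale, against a within-set SD of 0.48. Only the step from 1-1.16 to 1-1.2 passed that SD, and only just. Those are sister clones, and the SD is computed in part from their difference, so nothing is read from this comparison. The highest and the lowest clone, 5-3.14 and 5-3.19, belong to the same set and differed 1.78-fold. The related gene Stc2 was dim on all 5 arrays, at 11.4 in parental cells and 16.3 to 47.3 in the clones, below the limit for testing.

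Vegfa encodes the main growth factor for blood vessels and is among the most widely used readouts of HIF activity. Its brighter probe set (1373807_at) read 3513.7 in parental cells, 4217.5 in clone 1-1.2, 3524.3 in 1-1.16, 3189.9 in 5-3.14 and 2729.8 in 5-3.19. The parental value lay inside the range of the clones. A second probe set (1370081_a_at) read 1788 in parental cells, then 2016.2, 1727, 1929.4 and 1291.7 in the clones. Both gave a mean log2 difference of −0.06, and the brightest array was 1.54 and 1.56 times the dimmest.

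**Figure D2:**
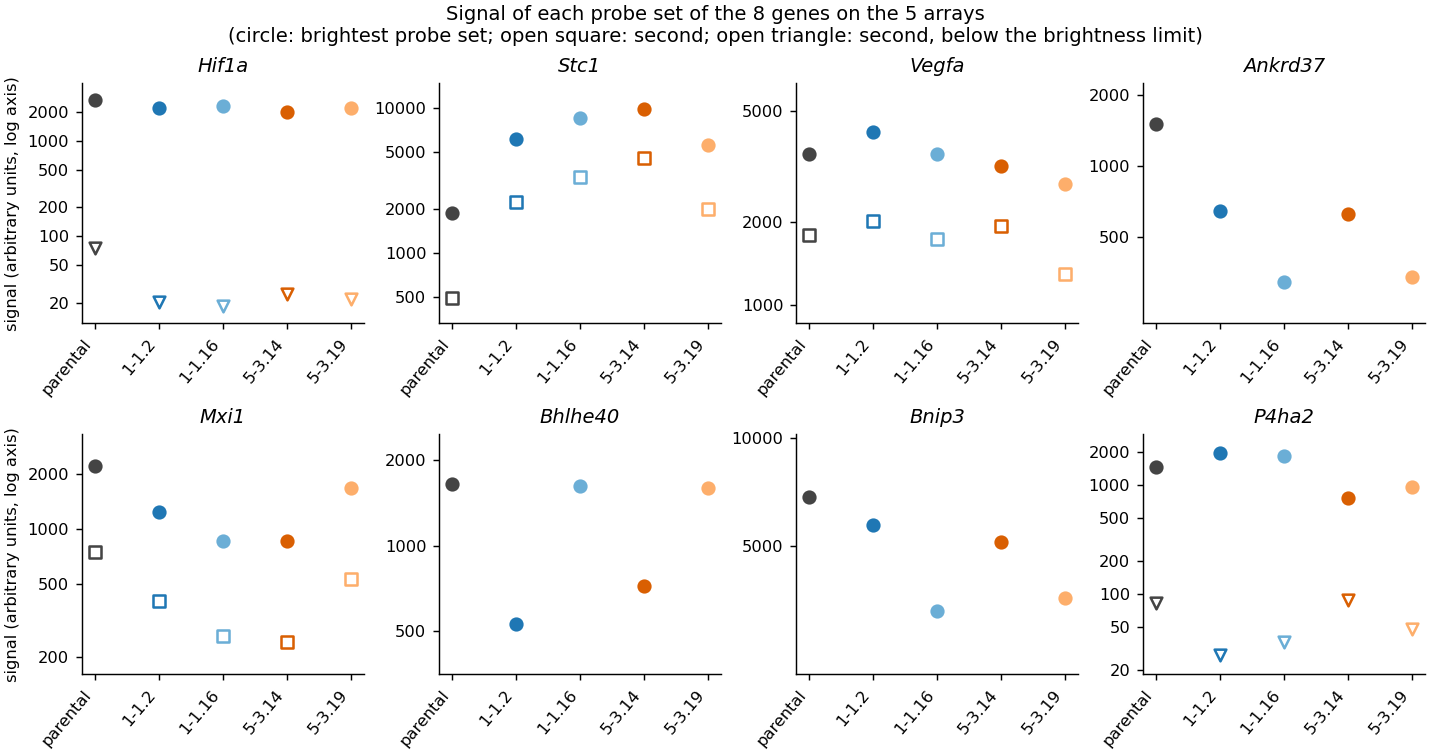
Signal in arbitrary units on a log axis for every probe set of the 8 genes, 1 panel per gene and 1 point per array; filled circles are the brightest probe set, open squares a second one and open triangles a second one below the brightness limit. Stc1 is lowest in the parental line on both probe sets. The parental line is the highest array for both Hif1a probe sets, Ankrd37, both Mxi1 probe sets, Bnip3 and Bhlhe40.

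Ankrd37 encodes a small ankyrin-repeat protein and is a direct HIF target. Its only probe set (1373685_at) read 1506 in parental cells, 643.2 in clone 1-1.2, 320 in 1-1.16, 622 in 5-3.14 and 336.7 in 5-3.19. The single parental array was above all 4 clones, an arrangement held by 19.7% of all tested probe sets. The clones fell into 2 levels that cut across the sets. The parental signal was 2.34, 4.71, 2.42 and 4.47 times that of the clones in this order. The clones averaged 480.5 ± 176 (SD, n = 4), and the mean log2 difference of −1.67 ranked 44 among falls. Ankrd37 was chosen for this fall, so nothing is read from that rank. On the log2 scale, clones 1-1.2 and 5-3.14 differed by 0.05 and clones 5-3.19 and 1-1.16 by 0.07, while the step between these pairs was 0.84. The within-set SD was 0.64, but it is computed from the sister clones, which lie on either side of that step. It is therefore no separate measure against which to judge the step.

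Mxi1 encodes a repressor that competes with Myc for its partner Max. Its brighter probe set (1372093_at) read 2203.2 in parental cells, 1236.8 in clone 1-1.2, 863.9 in 1-1.16, 855.6 in 5-3.14 and 1673.8 in 5-3.19. Every clone was below the parental array, by 1.78-fold, 2.55-fold, 2.58-fold and 1.32-fold. The mean log2 difference was −0.97, and no step between neighbouring lines passed the within-set SD of 0.54. A second probe set (1368963_at) read 744.5 in parental cells and 404.4, 258.9, 240.1 and 533 in the clones, in the same order of lines, with a mean log2 difference of −1.08.

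Bhlhe40 encodes a helix-loop-helix repressor that also belongs to the circadian clock. Its probe set (1369415_at) read 1641.7 in parental cells, 528.8 in clone 1-1.2, 1618.9 in 1-1.16, 721.2 in 5-3.14 and 1587.6 in 5-3.19. Only clones 1-1.2 and 5-3.14 stood apart from the parental line, at 3.10-fold and 2.28-fold lower, while 1-1.16 and 5-3.19 were within 1.01-fold and 1.03-fold of it. The mean log2 difference of −0.71 therefore describes neither pair of clones. Of the 8 genes it had the largest SD among clones, 0.80 on the log2 scale.

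Bnip3 encodes an outer mitochondrial membrane protein that promotes removal of mitochondria. Its probe set (1387805_at) read 6836.9 in parental cells, 5739.3 in clone 1-1.2, 3288.2 in 1-1.16, 5122.5 in 5-3.14 and 3572 in 5-3.19. The parental signal was 1.19, 2.08, 1.33 and 1.91 times that of the clones, a mean log2 difference of −0.66. The order of the lines was that of Ankrd37, with 1-1.2 and 5-3.14 nearest to the parental line. The first 2 steps of that order, 0.25 and 0.16, were smaller than the within-set SD of 0.48.

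The clones within a set thus differed from each other for several of these genes. Clone 1-1.2 was 2.01 times as bright as 1-1.16 for Ankrd37 and 1.75 times for Bnip3, and 5-3.14 was 1.85 and 1.43 times as bright as 5-3.19. For Bhlhe40 the direction was the opposite: 1-1.16 was 3.06 times as bright as 1-1.2, and 5-3.19 was 2.20 times as bright as 5-3.14. This pattern was noticed after the values were seen and rests on 1 array per clone, so it was not tested. The share of all probe sets with it was not counted. The brighter probe sets of Hif1a, Stc1, Vegfa, Mxi1 and P4ha2 did not set 1-1.2 and 5-3.14 apart from 1-1.16 and 5-3.19. The dimmer Vegfa probe set did.

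P4ha2 encodes an alpha subunit of the prolyl hydroxylase that modifies collagen. Its brighter probe set (1372610_at) read 1474.8 in parental cells, 1950.7 in clone 1-1.2, 1856.9 in 1-1.16, 763.9 in 5-3.14 and 951.6 in 5-3.19. Set 1-1 lay above the parental array and set 5-3 below it, with set means of 1904 ± 66.3 and 857.8 ± 133 (SD, n = 2 each). A second probe set (1375332_at) was below the brightness limit, at 82.6 in parental cells, 27.4 and 36.5 in set 1-1 and 88.4 and 47.5 in set 5-3, and there set 5-3 was the brighter one.

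**Figure D3:**
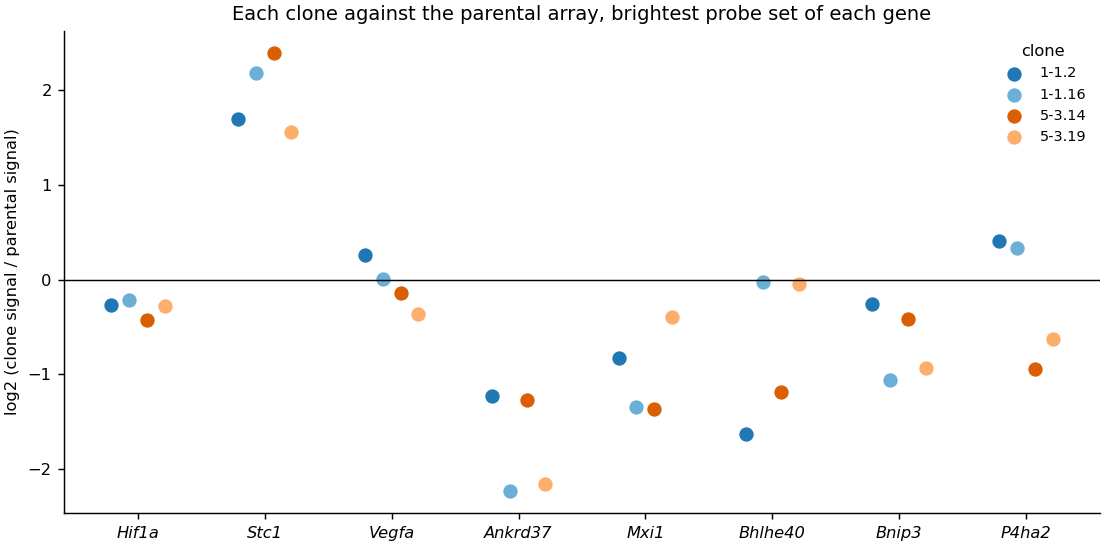
Log2 difference of each clone from the parental array for the brightest probe set of the 8 genes, 1 coloured point per clone, with the zero line marking the parental signal. All 4 clones are above zero for Stc1 and below it for Ankrd37, Mxi1, Bhlhe40, Bnip3 and Hif1a, and the 2 sets lie on opposite sides for P4ha2.

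Taken clone by clone, 5 of the 8 genes were below the parental array in 1-1.2 and in 1-1.16, and 7 of the 8 in 5-3.14 and in 5-3.19. The shares of all tested probe sets below it were 50%, 46.4%, 51.7% and 51%. The median log2 difference over the 8 genes was −0.26, −0.12, −0.67 and −0.38 in these clones, against 0, 0.04, −0.02 and −0.01 over all tested probe sets. All 4 comparisons share the single parental array, and the genes were chosen for this difference, so nothing is read from these counts.

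The comparison of set 5-3 with set 1-1 asked whether the genes differed between clones of different name series beyond the difference between sister clones. It was tested with limma on 3 groups, with 2 residual degrees of freedom before the shared variance estimate. Of all 9520 probe sets, 40 were called (21 higher and 19 lower in set 5-3), which is 0.420%; 1413, or 14.8%, had an unadjusted p under 0.05. None of the 11 tested probe sets of the 8 genes was called. P4ha2 alone of the 11 had an unadjusted p under 0.05, and 1 of 11 is near that background of 14.8%. The median absolute difference was 0.14 over the 11 probe sets and 0.26 over all tested. Stc1, Ankrd37 and Mxi1 were chosen for 1 direction in every clone of both sets, so nothing is read from these medians.

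P4ha2 had the largest difference of the 8 genes, −1.14 ± 0.23 (SE; 95% interval −1.68 to −0.60) on the log2 scale, with an unadjusted limma p of 0.00168 and an adjusted p of 0.105. It missed the threshold, and it passed only when clone 5-3.19 was left out (−1.29, limma adjusted p = 0.0412), which leaves set 5-3 with the single array of 5-3.14, assumed to vary like the other clones; over the alternatives the adjusted p ran from 0.0412 to 0.744. With the mean of both probe sets in place of the brighter one the difference shrank to −0.22. For Vegfa the difference was −0.38 ± 0.21 (−0.89 to 0.12; limma adjusted p = 0.470), and on its second probe set −0.24 ± 0.26 (−0.87 to 0.39; limma adjusted p = 0.743). Vegfa, P4ha2 and Hif1a were the 3 genes with both clones of set 5-3 below both of set 1-1, an arrangement held by 24.5% of all tested probe sets. No gene of the 8 had the reverse arrangement, held by 22.1%.

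For the genes that chose the group, the intervals between sets were wide. Stc1 differed by 0.03 ± 0.32 (−0.72 to 0.79; limma adjusted p = 0.973) and on its second probe set by 0.14 ± 0.41 (−0.83 to 1.11; limma adjusted p = 0.908). Ankrd37 differed by 0.01 ± 0.41 (−0.98 to 1.00; limma adjusted p = 0.994). For Mxi1 the brighter probe set gave 0.21 ± 0.36 (−0.65 to 1.07; limma adjusted p = 0.843), and the dimmer one 0.14 ± 0.41 (−0.84 to 1.12; limma adjusted p = 0.911). With intervals this wide, 4 clones cannot show that the sets were alike.

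Bhlhe40 had the widest interval, from −1.15 to 1.55 around 0.20 ± 0.57 (limma adjusted p = 0.907). Its sister clones differed more than its sets. Bnip3 differed by −0.02 ± 0.32 (−0.78 to 0.73; limma adjusted p = 0.983) and Hif1a by −0.11 ± 0.20 (−0.59 to 0.38; limma adjusted p = 0.860).

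**Figure D4:**
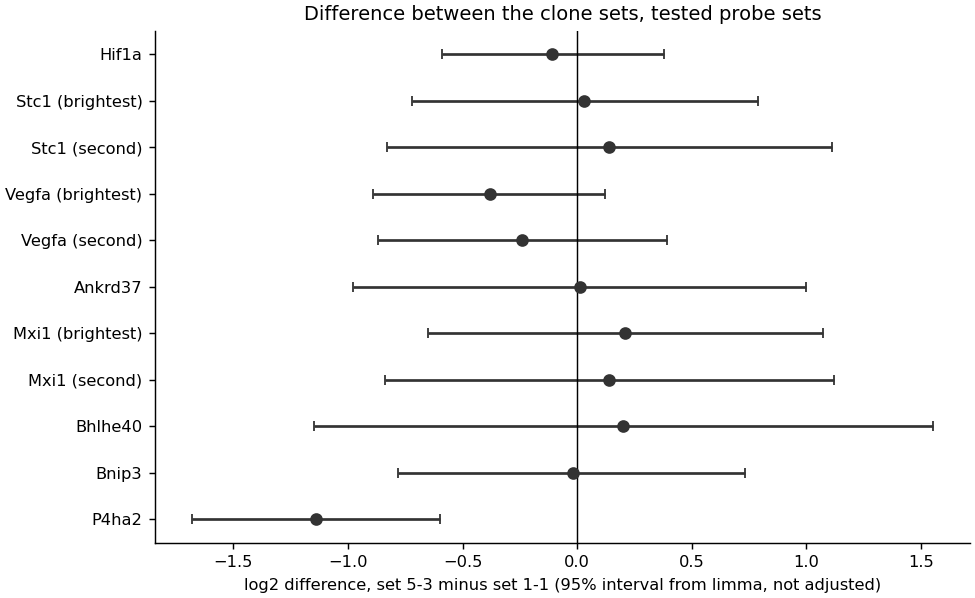
Log2 difference between set 5-3 and set 1-1 for the 11 tested probe sets of the 8 genes, with 95% intervals from limma; points left of zero are lower in set 5-3. Only the interval of P4ha2, −1.68 to −0.60, leaves out zero, and its adjusted p is 0.105.

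A wider list of 82 genes of HIF, oxygen sensing and their targets, sorted into 6 roles, gave the surroundings of the 8 genes. The list includes the 8 and was drawn up with earlier results of these data known. A probe set was found for 73 of the 82 genes, 51 of which passed the brightness limit; 22 were too dim to be tested and 9 had no probe set assigned to them alone. Of the 51, 15 (29.4%) were lower than the parental array in all 4 clones and 14 (27.5%) were higher in all 4, against 19.7% and 18.4% of all tested probe sets. Without the 8 genes, 10 of 43 (23.3%) were lower in all 4 clones and 13 of 43 (30.2%) were higher, and the median log2 difference was −0.02, against 0.007 over all tested probe sets. Limma called 0 of the 51 between the clones and the parental line and 0 between the sets; 10 of the 51 had an unadjusted p under 0.05 between the sets, against 14.8% of all tested probe sets, and the lowest adjusted p was 0.0835. The counts by role below have the same backgrounds, and they leave out genes that were too dim, among them genes that were dim in the clones only.

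Among 14 tested genes for HIF subunits and oxygen sensing, 6 were lower and 5 higher in all clones, with a median of 0.00. Arnt2, a partner subunit of HIF, read 356.8 in parental cells and 432.6 to 1147 in the clones, a mean log2 difference of 1.10; its second probe set gave 0.43. Rbx1, a part of the Vhl ubiquitin ligase, was 0.58 higher on the log2 scale (0.29 on its second probe set), and Siah2, a ligase that acts on EGLN proteins, was −0.44. Each of these 3 genes lay on 1 side of the parental line in all 4 clones. Epas1, the second oxygen-regulated subunit, stood out in clone 5-3.19 alone, at 3103.6 against 735.2 to 901.8 in the other clones and 1208.2 in parental cells; a dimmer second probe set had the same high clone, and the gene was named after its values were seen.

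The 4 tested secreted targets went different ways. Igfbp3, a carrier of insulin-like growth factors, read 777.7 in parental cells, 3238.6 and 2859.6 in set 1-1 and 1406.8 and 1143.3 in set 5-3. Like Stc1 it was higher in every clone, and it had the lowest adjusted p of the list between the sets, at −1.25 ± 0.23 (−1.79 to −0.71; limma adjusted p = 0.0835), short of the threshold. Without clone 5-3.14 it passed (−1.40; limma adjusted p = 0.0334). Igfbp1, a related carrier, read 940 in parental cells and 174.4, 217.7, 64.9 and 2161 in the clones. Clone 5-3.19 was above the parental line and the other 3 were well below it, so its mean difference of −1.65 rests on those 3. Between the sets Igfbp1 differed by 1.00 ± 1.29 (limma adjusted p = 0.781) and Epas1 by 0.78 ± 0.60 (limma adjusted p = 0.610). Without clone 5-3.14, which read far lower than 5-3.19 for both, these became 3.33 (limma adjusted p = 0.00255) and 1.80 (limma adjusted p = 0.0148). In all 3 calls made without 5-3.14, set 5-3 is represented by clone 5-3.19 alone, which is assumed to vary like the other clones.

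All 6 genes for transcription and chromatin targets were tested, and 4 were lower in all clones, with a median log2 difference of −0.74; 3 of those 4 belong to the 8 chosen genes. The other was Kdm4b, a histone demethylase named after its values were seen, at 595.9 in parental cells and 388.5 to 437.8 in the clones. Bhlhe41, the close relative of Bhlhe40, read 1560.3 in parental cells and 916.1, 1710.7, 621.7 and 714.5 in the clones. It was lower in 3 of 4, and clone 1-1.16 was near or above the parental line for both genes.

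Among 10 tested mitochondrial, mitophagy and stress targets, 4 were lower and 4 higher in all clones. Tfrc, the transferrin receptor for iron uptake, read 3479.5 in parental cells and 5048.4 to 7686.4 in the clones. Hmox1, the heme-degrading enzyme, read 136.6 in parental cells and 154.2, 488.4, 161.7 and 424.3 in the clones, brightest in 1-1.16 and 5-3.19. Those are the 2 clones in which Ankrd37 and Bnip3 were dimmest and Bhlhe40 was near its parental level. This overlap was noticed after the values were seen and was not tested, and Stc1 and Mxi1 did not share it. Ak4, a mitochondrial adenylate kinase named after its values were seen, fell below the brightness limit on the mean because of the clones: 705.4 in parental cells, then 188.7, 121.7, 49.2 and 106.5. The parental signal was 3.74 to 14.3 times that of the clones, and a dimmer second probe set went the same way, from 33.5 to 9 to 13.7.

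For collagen modification, P4ha1, the sister subunit of P4ha2, read 2221.5 in parental cells and 1007.3 to 1719.7 in the clones, lower in all 4. Plod1, a lysyl hydroxylase, had a mean log2 difference of −0.29 and was lower in 3 of 4 clones. The sets overlapped for P4ha1, and their difference was −0.08 ± 0.31 (−0.81 to 0.65; limma adjusted p = 0.933).

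Of the 13 tested genes for glucose uptake, glycolysis and pH, 0 were lower in all clones and 3 were higher, and the median was −0.02. The glucose transporter Slc2a1 read 745.6 in parental cells and 794.8, 465.2, 763.2 and 445 in the clones, dimmest in 1-1.16 and 5-3.19. Pfkp, a phosphofructokinase subunit, read 985.5 in parental cells, 878 in 1-1.2 and 1402.4 to 1448.4 in the other clones. Pfkfb4, which sets the level of a glycolytic activator, had a mean log2 difference of −0.34. Aldoc, an aldolase named after its values were seen, was like Ak4 below the limit on the mean and brightest on the parental array, at 510.1 against 38.5, 44.6, 158.9 and 255.3. Ldha, the lactate dehydrogenase subunit that beta cells normally keep low, was also named after its values were seen; it read 32.7 in parental cells and 17.3 to 40.7 in the clones, too dim to be tested.

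**Figure D5:**
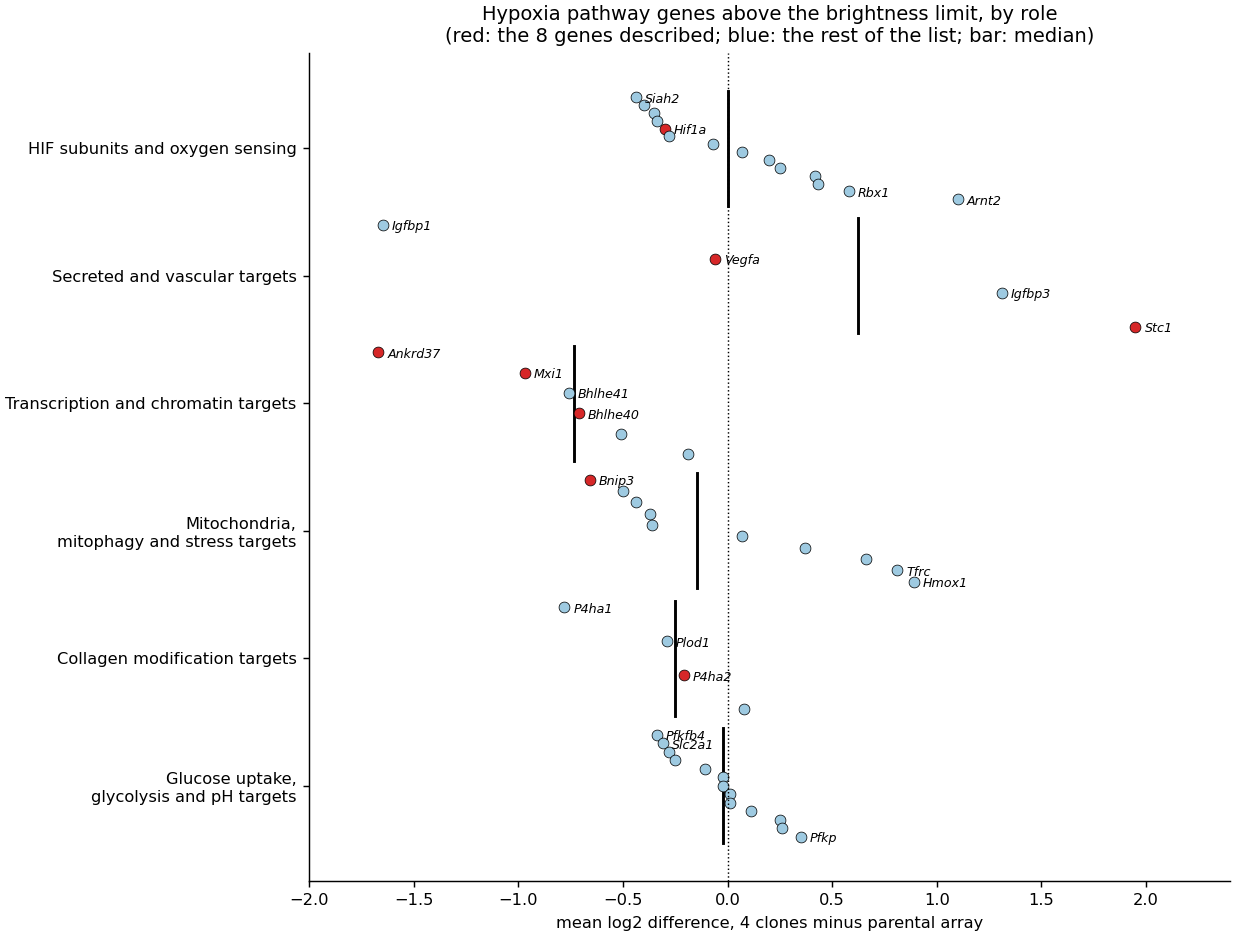
Mean log2 difference between the 4 clones and the parental array for the 51 tested genes of the hypoxia list, arranged by role; red points are the 8 genes described, blue points the rest, and bars the median of each role. Transcription and chromatin targets have a median of −0.74 and glucose and pH targets of −0.02, and Stc1 lies at 1.95. The first median includes Ankrd37, Mxi1 and Bhlhe40 of the 8 chosen genes, so the roles are not compared by it.

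The probe sets with the most similar pattern were found by the root-mean-square distance between log2 profiles over the 5 arrays, each centred on its own mean. For Stc1 the nearest were Rai14 at 0.23, its own second probe set at 0.25 and Tm4sf4 at 0.27. For Ankrd37 they were Col9a1 at 0.13, Nsg2 at 0.15 and Fasn at 0.26, and for Mxi1 its own second probe set at 0.07, Creb1 at 0.08 and Prkacb at 0.11. Col9a1, for example, read 1983 in parental cells and 749.7, 340.1, 681.8 and 451.6 in the clones, the same order of lines as Ankrd37. They are named as a description only, from 5 arrays.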

How the data were processed

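Total RNA of 5 INS-1 lines was hybridised to single-colour rat arrays, 1 array each. The deposited values are linear signal intensities, which the authors had scaled to a common level, as the values themselves show; the software behind them is not given in the sources used here, nor is any background correction. No detection calls were used, so dim probe sets may be background, and precision is limited by the number of arrays. The 57 control probe sets were left out of 15923. Of the remaining 15866, 12783 had 1 gene symbol in the platform table, 312 several and 2771 none; 12748 matched the GRCr8 gene table and no symbol changed.

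Signals were taken as log2(signal + 21.8), the offset being the 10th percentile of positive signals, so differences of dim genes are understated. Probe sets at or above the 40th percentile of mean log2 level were tested with limma 3.58.1 in R 4.3.3 (intensity trend, two-sided, Benjamini-Hochberg over 9520, threshold 0.05), as clones against parental line and as 3 groups for the difference between sets. The lone parental array was assumed to vary like the clones. Nothing says that the RNA came from separate cultures, so p-values measure the spread between these arrays. A gene was read from its brightest probe set. Scripts were tested on simulated data.

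The 8 genes, the list of 82, its roles and the marker lists were chosen with earlier results of these data known. Beyond the 8 genes, those named were, per role, any called between sets and the 3 with the largest mean difference from the parental line, the 3 nearest profiles, the relative Stc2 and the markers; others are named as chosen after their values were seen. Alternatives varied the scaling, offset, brightness limit, variance model, use of several probe sets and each clone.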

Additional observations from a re-analysis of the deposited data

Results flagged for a closer look

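On their brighter probe sets, P4ha2 and Vegfa lay on opposite sides of the parental line in the 2 sets. For P4ha2 both clones of set 1-1 were above the parental array and both of set 5-3 below it, with a difference between sets of −1.14 on the log2 scale (limma adjusted p = 0.105). For Vegfa the arrangement was the same with a difference of −0.38 (limma adjusted p = 0.470), but clone 1-1.16, at 3524.3, was barely above the parental 3513.7. The second probe sets did not hold the arrangement: for Vegfa, 1-1.16 read 1727 and 5-3.14 read 1929.4 around a parental 1788, and the dim one of P4ha2 had both clones of set 1-1 below the parental array.

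Pfkp in clone 1-1.2 stood apart from the other 3 clones: its gap to the nearest of them was 0.935 of the whole range of the 4 clones. It was the only such value among 24 probe sets checked, and chance alone sets apart about 1 in 20 groups.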

How the results depend on the processing

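The direction of the mean difference between clones and parental line held for Stc1, Ankrd37, Mxi1, Bhlhe40, Bnip3 and Hif1a under all 12 alternatives: 1.80 to 2.22 for Stc1, −1.83 to −1.51 for Ankrd37, −0.85 at its smallest for Mxi1, −0.94 to −0.41 for Bhlhe40, −0.80 to −0.53 for Bnip3 and −0.73 to −0.25 for Hif1a, whose −0.73 came from averaging both probe sets. Leaving out 1 clone could not have changed those directions, since for each of these genes every clone lay on the same side. The brightness limit does not enter the difference, and a change of offset keeps the order of the arrays. The mean of several probe sets was fixed too, since every probe set of these genes had all clones on the same side. For all those settings the direction was fixed in advance, and at most the size could move. Only the changes of scaling could have turned it. P4ha2 (−0.41 to 0.04) and Vegfa (−0.17 to 0.04) crossed 0. No probe set was called between clones and parental line under any of the 12. The 40 probe sets called between sets became 70 with median centring, 64 with an offset 4 times larger, 10 with no brightness limit, 12 with the limit at the 60th percentile, and 50 to 224 when 1 clone was left out, with 221 without 5-3.14 and 224 without 5-3.19; the cause was not tested. Leaving out a clone called 0 to 1 of the 8 genes (P4ha2, without 5-3.19) and 0 to 3 genes of the list of 82. The difference between sets, small for most of the 8 genes, changed sign for Bnip3 with median centring (0.01) and for Hif1a with the mean of both probe sets (0.02). With 1 clone left out it ran from −0.38 to 0.45 for Stc1, −0.47 to 0.49 for Ankrd37, −0.27 to 0.68 for Mxi1, −0.59 to 0.99 for Bhlhe40 and −0.42 to 0.38 for Bnip3. With 15 of 51 listed genes lower in all clones, the alternatives gave 11 (of 42, limit at the 60th percentile) to 21 (of 73, no limit), and the median of −0.11 ran from −0.20 to −0.06. No paired analysis was possible because the labels name nothing that links a clone of set 1-1 to a clone of set 5-3.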
